A study of Mus musculus with 4 samples.

Results

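The BCL2 family decides whether the outer membrane of the mitochondrion stays intact. Its anti-apoptotic members (BCL2, BCL-XL, MCL1 and A1) hold back the effectors BAX and BAK, which otherwise open pores that release cytochrome c and start the caspase cascade. The BH3-only members, such as BIM, BID and PUMA, bind the anti-apoptotic proteins or the effectors and tip the balance toward death. In T cells, BIM removes many activated cells once cytokine support is withdrawn, and A1 is induced by antigen receptor and NF-κB signaling. A set of 10 genes, picked by gene symbol, was followed here among 15981 genes that are listed for at least 1 library. It holds 5 anti-apoptotic genes (*Bcl2*, *Bcl2l1*, *Mcl1*, *Bcl2a1b* and *Bcl2a1d*), the effector genes *Bax* and *Bak1*, and the BH3-only genes *Bcl2l11* (BIM), *Bid* and *Bbc3* (PUMA).

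Transcripts were measured by RNA-Seq in Thy1.1+ Pmel-1 CD8+ T cells, which carry a receptor for a melanoma antigen, recovered from C57BL/6 mice. Per the methods, naive cells were activated through CD3 and CD28 or, in some experiments, Pmel-1 spleen cells with the peptide antigen. Polarization was with IL-2 for Tc1 cells and with IL-4, TGF-β and an antibody that blocks IFN-γ for Tc9 cells, and both were then kept in standard medium containing IL-2. After 5 days of culture in all they were given intravenously to Thy1.2+ hosts with a B16 melanoma of 10 days under the skin, and 14 days after transfer they were sorted from the tumor. Per the methods, the hosts of both groups also received cyclophosphamide, peptide-pulsed dendritic cells and IL-2, so no group lacked these treatments. RNA of 6 mice was pooled into 2 samples per group, and the sources used here do not say which mice entered which pool. The p-values below therefore measure the spread between these pools, which may be in part technical. The comparison asks which survival and death transcripts differ between Tc9 and Tc1 cells inside the tumor.

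Each library gave an expected count per gene (reads per gene as estimated, not always whole) and an FPKM (fragments scaled to transcript length and library size). The 4 libraries held 30822953 to 31927162 counts. The lowest value, that of Tc9 replicate 2, is the sum of its counts. The others were read from the ratio of count to FPKM, relative to Tc9 replicate 2. Their tables as used here stop at different points of the gene order, so that 8 of the 10 genes were reached in all 4 libraries, while *Mcl1* and *Bbc3* were reached in 3, Tc1 replicate 2 and both Tc9 libraries. All 8 and both others passed the filter on low counts. The Tc1 libraries lay closer to each other than the Tc9 libraries did, with a chi-square per gene of 4.40 against 40.9. CPM below are counts scaled to a common library size, from depth and edgeR's TMM factors.

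Cell markers of the sort were checked first. *Cd8a*, a chain of the CD8 coreceptor, stood at 686, 686, 674 and 616 CPM in Tc1 replicates 1 and 2 and Tc9 replicates 1 and 2. *Cd8b1*, the other chain, was not past the threshold (log2 fold change 0.31, adjusted p = 0.0521), and *Cd3e*, a T cell receptor chain, rose (log2 fold change 0.73 ± 0.17, SE, adjusted p = 0.0108). Of 7 CD8 T cell markers tested in 4 libraries, 2 rose (*Cd3e* and *Cd3g*) and 1 fell (*Cd2*), the last 2 named after their values were seen. Markers of other cells ranged from 0 to 1592 counts. *Cd4* had 45 to 58 counts and *Cd79a*, a B cell marker, 7 to 12. *Csf1r* and *Lyz2* had 0 to 3 counts in 3 libraries. The 3 myeloid markers reached in all libraries summed to 228 and 222 counts among Tc1 cells, against 360 and 440 among Tc9 cells, nearly all from *Cd68*, which rose (log2 fold change 0.84 ± 0.15, SE, adjusted p = 0.00295). In the replicate 2 libraries, *Pmel* was at 70.0 (Tc1) and 117 (Tc9) counts, *Tyr* at 6 and 12.9, and *Dct* was at 0. *Foxp3*, on the list of CD4 T cell markers as the factor of regulatory T cells, went from 34.6 counts (Tc1) to 1592 (Tc9) between the same libraries. It was singled out after its values were seen. In the fit of 3 libraries, *Cd79b* of the B cell list rose (155 counts in Tc1 replicate 2, then 380 and 473) and *Fcer1g* of the myeloid list fell (114, then 24 and 13), and *Itgax* of the myeloid list had 154 counts and then 171 and 188, all 3 also named afterwards. The part of *Cd3e*, *Cd68*, *Foxp3*, *Cd79b* and *Fcer1g* in the results below was not tested.

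Among the 8 genes tested in 4 libraries, 3 were lower in Tc9 than in Tc1 cells, 0 were higher and 5 did not pass an adjusted p of 0.05. The share of all 1284 genes tested that fell by the same rule was 16.7%, and the share that rose was 17.4%. The 3 that fell were *Bcl2a1b* and *Bcl2a1d*, 2 of the copies that encode the survival protein A1, and *Bcl2l11*, which encodes the death protein BIM. Thus 1 pair with a survival role and 1 gene with a death role fell, each to between 0.415 and 0.508 of its level in Tc1 cells. At an unadjusted p under 0.05 the same 3 genes passed and 0 rose, and DESeq2 also called 0 higher. The median log2 fold change of the 8 was -0.10, beside 0.0014 for all genes tested. In 6 of the 8 the Tc1 and Tc9 libraries did not overlap, which was true of 70.4% of all genes tested, so that lack of overlap alone says little with 2 libraries a group. These are bulk samples, in which fewer cells with a transcript and less of it per cell cannot be told apart.

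**Figure D1:**
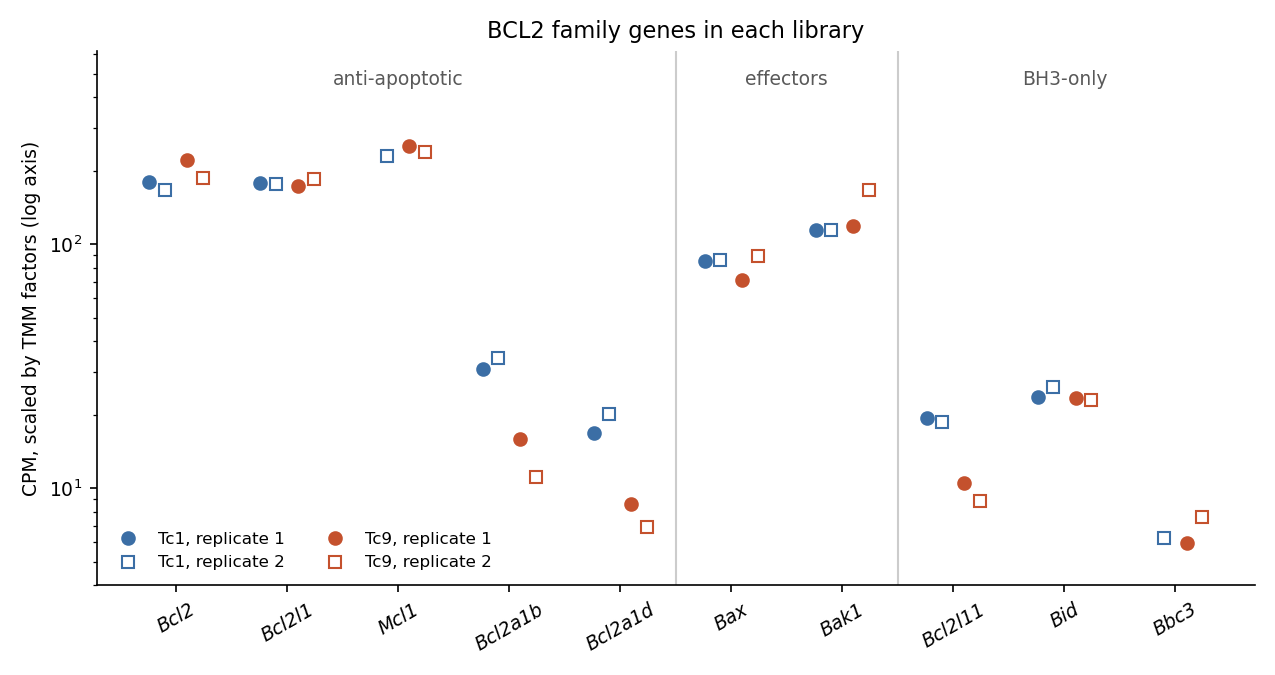
CPM (log axis) of the 10 BCL2 family genes in each library, blue for Tc1 and red for Tc9, filled circles for replicate 1 and open squares for replicate 2, with no point where a table does not reach the gene. Both Tc9 points of Bcl2a1b (15.9 and 11.2 CPM), Bcl2a1d (8.64 and 6.94) and Bcl2l11 (10.5 and 8.86) lie well under both Tc1 points, and Bak1 in Tc9 replicate 2 (167 CPM) stands above its other 3 libraries.

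The A1 genes showed the widest gap of the set. *Bcl2a1b* (gene ID 12045, GRCm38.p6 chr9:89199273-89207838, plus strand) had 975 and 1074 counts among Tc1 cells, against 499 and 350 among Tc9 cells. That is 32.6 ± 2.31 CPM in Tc1 against 13.5 ± 3.35 CPM in Tc9 (SD, n = 2 each), with no overlap. Its log2 fold change was -1.27 ± 0.17 (SE), with a 95% interval of -1.64 to -0.90 and an adjusted p of 0.000428. *Bcl2a1d* (gene ID 12047, chr9:88723288-88731850, minus strand) had 533 and 635 counts among Tc1 cells, against 271 and 218 among Tc9 cells. The gap was a log2 fold change of -1.25 ± 0.16 (SE), with a 95% interval of -1.61 to -0.90 and an adjusted p of 0.000334. Only 2.96% and 3.19% of all genes tested had a lower log2 fold change than *Bcl2a1b* and *Bcl2a1d*. The Tc9 libraries differed from each other in both genes, replicate 2 being the lower, by 0.51 and 0.32 on the log2 scale.

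The 2 genes cannot be read as independent measurements. The mouse has several near-identical A1 copies on chromosome 9, and reads that fit more than 1 of them are shared out by estimation, which shows in counts such as 975.23 and 532.77. The coding sequences of *Bcl2a1b* and *Bcl2a1d* are both 519 bases long and differ at 6 positions (98.8% identity). Of all windows of 50 bases in their GENCODE transcripts, 57.6% of those of *Bcl2a1b* and 79.5% of those of *Bcl2a1d* occur unchanged in another copy. The first 120 coding bases, the stretch where the pair differs most, are shown to make plain how little sequence tells them apart, with the 3 differing positions in capitals.
Bcl2a1b: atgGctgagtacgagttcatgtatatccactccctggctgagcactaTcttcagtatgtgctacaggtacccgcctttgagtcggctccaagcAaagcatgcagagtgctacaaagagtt
Bcl2a1d: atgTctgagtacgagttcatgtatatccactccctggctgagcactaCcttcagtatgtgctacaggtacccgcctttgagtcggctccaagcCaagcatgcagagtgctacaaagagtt

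The other copies add little or move the same way. *Bcl2a1a*, which differs from *Bcl2a1d* at 7 coding positions, was given 0, 0.9, 0.87 and 0 counts, at or under the floor of 3 counts in every library. *Bcl2a1c*, a shorter copy with few shared windows (10.4%), had 30 and 31.9 counts among Tc1 cells, against 14 and 9 among Tc9 cells, a log2 fold change of -1.42 ± 0.35 (SE, adjusted p = 0.0127). This call was lost under DESeq2 (adjusted p = 0.104) and without Tc1 replicate 2 (adjusted p = 0.103). Summed over the 4 copies, which removes the question of how reads were split between them, A1 transcripts came to 1538 and 1742 counts among Tc1 cells, against 785 and 577 among Tc9 cells. The sum fell by a factor of 2.40 (log2 fold change -1.27 ± 0.16, SE, adjusted p = 0.000305). The count of *Bcl2a1b* over that of *Bcl2a1d* was 1.83 and 1.69 in Tc1 and 1.84 and 1.61 in Tc9, so the groups overlapped in this ratio. An exon of a further gene model, *Gm29094*, overlaps *Bcl2a1b* on the same strand and may share its reads.

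The promoters of the genes that fell are shown as a description, and a shared control of these genes was not tested. Each window runs from 250 bases before to 50 after an annotated start (RefSeq, GRCm38.p6) and is written 5′ to 3′ on the strand of the gene. Capitals mark matches on either strand to GTAAACA, the core of sites bound by FOXO factors, and to GGGNNNNNCC, a loose form of NF-κB sites; where matches overlap they run together. A form of STAT sites, TTCNNNGAA, was searched as well and is absent from the windows of all 10 genes. The window printed for *Bcl2l11* is that of its annotated start 1. The window of its start 2 (chr2:128127325-128127624, plus strand) is not printed and holds 3 matches to GGGNNNNNCC and 0 to GTAAACA.
Bcl2a1b, chr9:89199023-89199322, plus strand: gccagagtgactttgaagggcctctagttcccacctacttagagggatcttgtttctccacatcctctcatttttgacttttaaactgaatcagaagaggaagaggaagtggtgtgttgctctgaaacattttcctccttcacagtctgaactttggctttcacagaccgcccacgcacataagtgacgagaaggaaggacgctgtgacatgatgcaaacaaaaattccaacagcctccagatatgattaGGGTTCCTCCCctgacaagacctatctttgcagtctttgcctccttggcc
Bcl2a1d, chr9:88731801-88732100, minus strand: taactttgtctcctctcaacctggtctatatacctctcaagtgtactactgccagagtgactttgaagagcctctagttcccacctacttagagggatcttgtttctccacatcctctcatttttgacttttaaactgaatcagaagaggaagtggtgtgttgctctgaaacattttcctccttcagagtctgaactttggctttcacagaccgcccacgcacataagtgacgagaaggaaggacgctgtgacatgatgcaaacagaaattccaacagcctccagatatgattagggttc
Bcl2l11, chr2:128125788-128126087, plus strand: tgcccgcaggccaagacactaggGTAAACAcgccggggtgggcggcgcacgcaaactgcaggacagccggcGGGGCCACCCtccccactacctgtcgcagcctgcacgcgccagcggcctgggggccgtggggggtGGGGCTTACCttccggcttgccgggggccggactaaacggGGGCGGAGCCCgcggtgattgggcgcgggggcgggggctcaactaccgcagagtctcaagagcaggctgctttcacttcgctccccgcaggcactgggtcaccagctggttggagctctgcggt

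Over an alignment of 256 positions, the *Bcl2a1b* and *Bcl2a1d* windows were 96.5% identical. The *Bcl2a1d* window starts further upstream and ends inside the bases that line up with the GGGNNNNNCC match in *Bcl2a1b*, so the windows cannot be compared for this match. GGGNNNNNCC is present in 50.8% of all 32851 promoter windows and in at least 1 window of 9 of the 10 genes. The 10 genes have 15 windows in all, and a gene with several can match in any of them. The count of genes and the share of windows are therefore unlike measures. GTAAACA is rarer, at 3.65% of all windows. It occurs in the window of start 1 of *Bcl2l11* and of start 2 of *Bbc3*, and not at their other annotated starts. TTCNNNGAA occurs in 8.30% of all windows. A match of letters is a description of the window and does not show that a factor binds there.

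Levels of the other anti-apoptotic genes lay close together in the groups. *Bcl2* (gene ID 12043), which encodes the survival protein that IL-7 signaling maintains in T cells, had 5687 and 5251 counts among Tc1 cells, against 6921 and 5876 among Tc9 cells. Both Tc9 libraries lay above both Tc1 libraries, but Tc9 replicate 2 was only slightly above Tc1 replicate 1, at 187 against 180 CPM. Its log2 fold change of 0.23 ± 0.12 (SE, 95% interval -0.04 to 0.50) did not pass the threshold (adjusted p = 0.156). It was 0.35 without Tc9 replicate 2 and 0.11 without Tc9 replicate 1. Each of these fits held a single Tc9 library and so no spread between Tc9 pools. *Bcl2l1* (gene ID 12048), which encodes BCL-XL, had 5609 and 5563 counts among Tc1 cells, against 5428 and 5815 among Tc9 cells, and the groups overlapped. The fitted log2 fold change was 0.01, with a 95% interval of -0.22 to 0.25. *Mcl1* (gene ID 17210) had 7234 counts in Tc1 replicate 2, against 7899 and 7484 among Tc9 cells. In the fit of 3 libraries its log2 fold change was 0.06, with a wide 95% interval of -0.44 to 0.56 (adjusted p = 0.906), since the single Tc1 library was assumed to vary like the Tc9 pair. In that fit 20.4% of 2622 genes passed in either direction, and neither *Mcl1* nor *Bbc3* passed, at an unadjusted p under 0.05 or with DESeq2 either.

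Neither effector gene passed the threshold. *Bax* (gene ID 12028) had 2679 and 2715 counts among Tc1 cells, against 2231 and 2796 among Tc9 cells, the Tc9 libraries lying on either side of the Tc1 pair. Its log2 fold change was -0.10 (95% interval -0.39 to 0.20, adjusted p = 0.588). It was 0.054 without Tc9 replicate 1 and -0.27 without Tc9 replicate 2, in fits that each held a single Tc9 library. *Bak1* (gene ID 12018) had 3590 and 3599 counts among Tc1 cells, against 3733 and 5241 among Tc9 cells. Its log2 fold change of 0.32 ± 0.15 (SE, 95% interval -0.02 to 0.67, adjusted p = 0.127) came mostly from Tc9 replicate 2. It was 0.55 without Tc9 replicate 1 and 0.062 without Tc9 replicate 2. The Tc9 pools thus differed in *Bax* and *Bak1* by 0.33 and 0.49 on the log2 scale, against 0.02 and 0.01 between the Tc1 pools. *Ggnbp1*, whose exons overlap those of *Bak1* on the other strand, had 88 counts in Tc9 replicate 2 and was not reached in the other libraries.

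Of the BH3-only genes, *Bcl2l11* fell and the others did not pass. *Bcl2l11* (gene ID 12125, GRCm38.p6 chr2:128126038-128162547, plus strand) had 614 and 588 counts among Tc1 cells, against 331 and 278 among Tc9 cells. That is 19.1 ± 0.53 CPM against 9.70 ± 1.19 CPM (SD, n = 2 each), with no overlap and a gap several times the spread within either group. Its log2 fold change was -0.98 ± 0.14 (SE), with a 95% interval of -1.29 to -0.67 and an adjusted p of 0.000652, and 4.52% of all genes tested had a lower one. *Bid* (gene ID 12122), whose product links death receptors to mitochondria once caspase-8 has cut it, had 748 and 817 counts among Tc1 cells, against 732 and 724 among Tc9 cells. The gap is smaller than the distance between the Tc1 libraries (log2 fold change -0.10, 95% interval -0.36 to 0.16, adjusted p = 0.532). *Bbc3* (gene ID 170770), a target of p53, had 197 counts in Tc1 replicate 2, against 188 and 239 among Tc9 cells, on either side of the Tc1 value. This gave a log2 fold change of 0.09 (95% interval -0.45 to 0.63, adjusted p = 0.865).

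**Figure D2:**
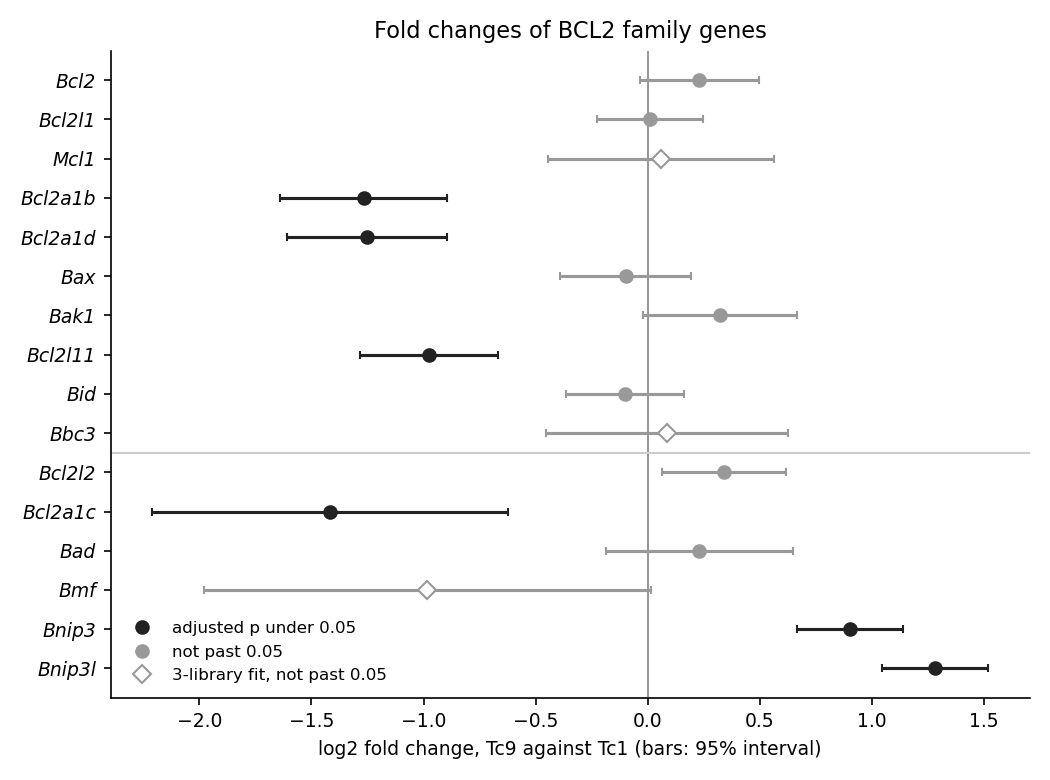
Log2 fold change of Tc9 against Tc1 with its 95% interval for the 10 BCL2 family genes (above the line) and for further family genes tested (below it), black where the adjusted p is under 0.05 and open diamonds where 3 libraries were fitted. Bcl2a1b, Bcl2a1d, Bcl2l11 and Bcl2a1c lie left of 0, Bnip3 and Bnip3l right of it, and the other intervals are gray.

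**Figure D3:**
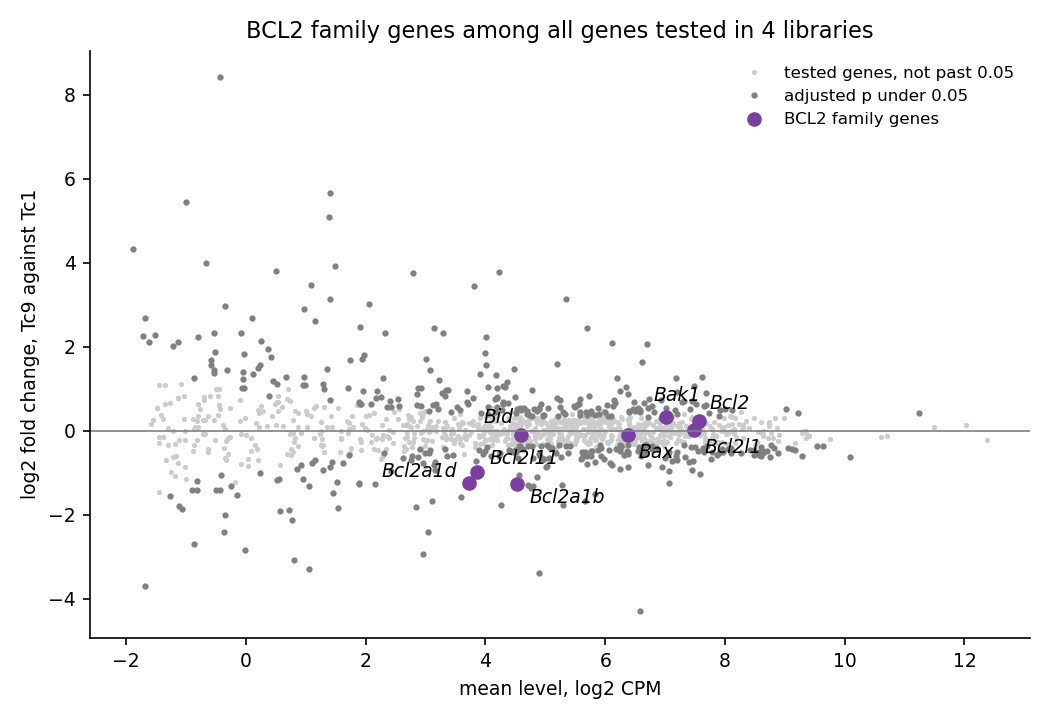
Log2 fold change against mean level (log2 CPM) for the 1284 genes tested in 4 libraries, dark gray where the adjusted p is under 0.05, with the 8 BCL2 family genes in purple. Bcl2a1b, Bcl2a1d and Bcl2l11 lie below most genes of their level, and Bcl2, Bcl2l1, Bax, Bak1 and Bid lie within the band around 0.

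The quantities of different transcripts were compared per length, as FPKM. In Tc1 cells *Bax* was highest, at 104 and 107 FPKM, followed by *Bcl2l1* at 73.6 and 72.4, *Mcl1* at 67.4 in 1 library, *Bak1* at 60.0 and 60.1 and *Bcl2a1b* at 48.9 and 54.6. *Bcl2* (27.5 and 24.5 FPKM) and *Bcl2a1d* (25.4 and 30.7) overlapped, above *Bid* at 13.5 and 14.8, *Bcl2l11* at 4.51 and 4.10 and *Bbc3* at 3.40. In Tc9 cells *Bax* (86.1 and 106.6 FPKM), *Bak1* (63.9 and 90.5), *Bcl2l1* (72.1 and 79.5) and *Mcl1* (75.6 and 72.3) overlapped in part and could not be ordered as a group. *Bcl2* followed at 33.4 and 28.8 FPKM, above *Bcl2a1b* at 25.8 and 18.2, *Bid* at 13.6 and 13.5 and *Bcl2a1d* at 13.3 and 10.8. *Bcl2a1b* thus lay above *Bcl2* in both Tc1 libraries and below it in both Tc9 libraries. *Bcl2l11* was last in Tc9, at 2.62 and 2.29 FPKM, below *Bbc3* at 3.35 and 4.28.

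The make-up of the survival transcripts differed accordingly. *Bcl2*, *Bcl2l1*, *Bcl2a1b* and *Bcl2a1d* together came to 175 and 182 FPKM in Tc1 and 145 and 137 in Tc9. The A1 pair supplied 42.4% and 46.8% of this sum in Tc1 and 27.0% and 21.1% in Tc9. *Mcl1*, reached in 3 libraries, is not in the sum, so these shares are higher than with *Mcl1* counted. It stood at 67.4 FPKM in Tc1 replicate 2 and at 75.6 and 72.3 in Tc9 replicates 1 and 2. Relative to the death gene, *Bcl2* was at 6.09 and 5.97 times the FPKM of *Bcl2l11* in Tc1 and at 12.8 and 12.6 times in Tc9. *Bcl2l1* was at 16.3 and 17.7 times *Bcl2l11* in Tc1 and at 27.5 and 34.7 times in Tc9. The A1 pair was at 16.5 and 20.8 times *Bcl2l11* in Tc1 and at 14.9 and 12.6 times in Tc9. *Bcl2* and *Bcl2l1* did not pass the test on their own, and the ratios were given no test.

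**Figure D4:**
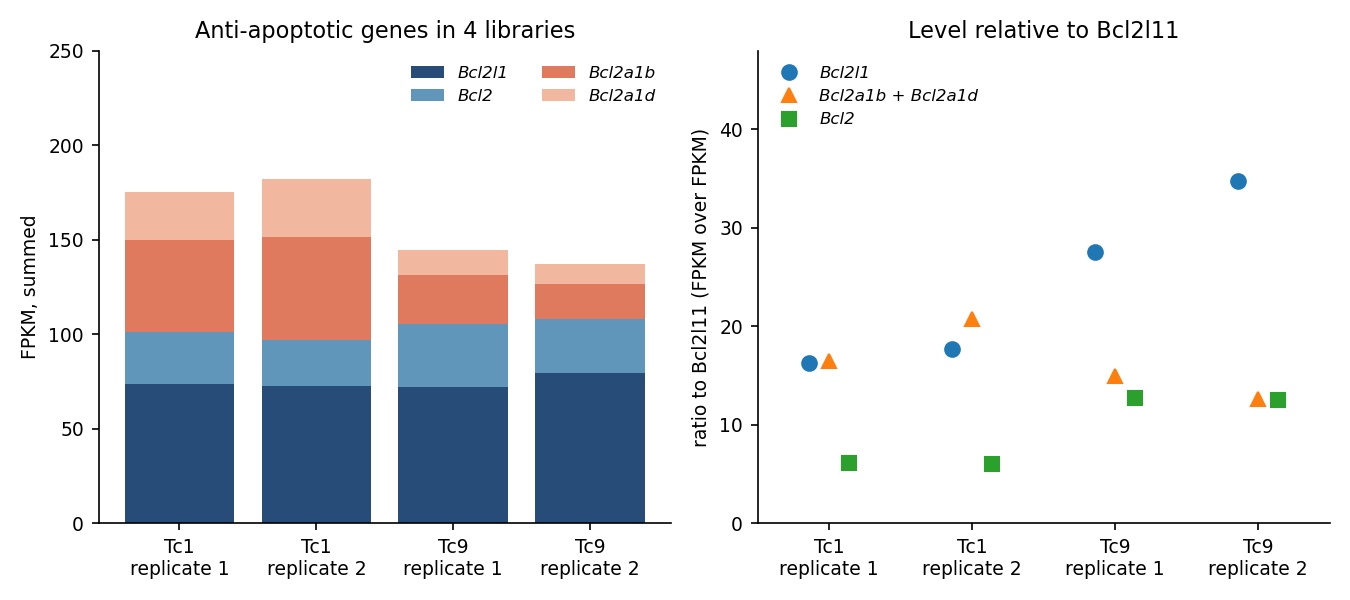
Left, FPKM of 4 anti-apoptotic genes stacked for each library (Mcl1 is left out, since it was reached in 3 libraries). Right, the FPKM of Bcl2l1, of Bcl2a1b plus Bcl2a1d and of Bcl2 divided by that of Bcl2l11 in the same library; the A1 part of the bars shrinks from 42.4% and 46.8% in Tc1 to 27.0% and 21.1% in Tc9, while the ratio of Bcl2 to Bcl2l11 goes from 6.09 and 5.97 to 12.8 and 12.6.

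The tables also give a mean transcript length per gene, weighted by the transcripts that were estimated to be present. For *Bcl2l11*, which is made as several splice forms of different length, it was 4416 and 4618 bases in Tc1 and 4195 and 4072 in Tc9, and the mean dropped by 8.49%. For *Bax* it was 949 and 941 bases in Tc1 and 974 and 990 in Tc9. With *Bid*, 3 of the 5 genes whose length varied did not overlap between the groups. This is no result about the family, as 49.9% of all 738 genes with a varying length did not overlap either.

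Other genes of the family went in both directions. Of 16 on a list of further family members, 9 were reached in all libraries and 5 passed the filter, of which 2 rose (*Bnip3* and *Bnip3l*), 1 fell (*Bcl2a1c*) and 2 were not called. *Bnip3* and *Bnip3l* encode mitochondrial proteins with a BH3-like stretch that are known for marking mitochondria for removal and are induced by low oxygen. *Bnip3l* had 3647 and 3580 counts among Tc1 cells, against 8962 and 8590 among Tc9 cells, a log2 fold change of 1.28 ± 0.11 (SE, adjusted p = 1.99e-05). *Bnip3* had 4639 and 4343 counts among Tc1 cells, against 8593 and 8165 among Tc9 cells, a log2 fold change of 0.90 ± 0.11 (SE, adjusted p = 0.000193). For both genes the gap between the groups was many times the distance between replicates. *Bcl2l2*, which encodes the survival protein BCL-W, had 416 and 418 counts among Tc1 cells, against 518 and 536 among Tc9 cells and lay just short of the threshold (log2 fold change 0.34 ± 0.12, SE, adjusted p = 0.0565). The median log2 fold change of the 5 was 0.34. *Bad*, a BH3-only gene, was at 0.23 (adjusted p = 0.359). *Bmf*, another, had 35 counts in Tc1 replicate 2, against 19 and 17 among Tc9 cells (log2 fold change -0.98, adjusted p = 0.167 in the fit of 3 libraries). *Bik* had 4 to 12 counts, *Hrk* 0 to 2 and *Bcl2l10* 0 in all 4 libraries. *Bcl2l15* had 13 and 10 counts in the replicate 2 libraries. *Bcl2l12*, *Bcl2l13*, *Bcl2l14*, *Bok* and *Pmaip1* were reached only in Tc9 replicate 2, with 527, 1872, 24, 3 and 345 counts, and were not compared.

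Downstream of the mitochondrion, genes of the apoptosome and of the inhibitors of apoptosis were tested in 4 libraries, of which *Apaf1* rose and 8 were not called. *Apaf1*, the scaffold on which caspase-9 is activated, had 1682 and 1554 counts among Tc1 cells, against 2197 and 2068 among Tc9 cells (log2 fold change 0.40 ± 0.11, SE, adjusted p = 0.0219). Its call was lost without Tc1 replicate 1 (adjusted p = 0.253) and without Tc1 replicate 2 (adjusted p = 0.442). In the fit of 3 libraries, 0 of 3 further genes of this list passed.

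Signals that are known to set these genes could be compared only in part. Of 30 regulators, 2 were tested in 4 libraries and 3 more in 3 libraries, and 0 passed. Between the replicate 2 libraries alone, 9 of 18 further regulators were higher in Tc9 and 9 lower, with log2 ratios of -0.62 to 0.75. For scale, the log2 ratio between the Tc9 libraries themselves was within 0.67 for 95% of 2532 genes with at least 10 counts. Among the NF-κB subunits, singled out after their values were seen, *Rel* was at 69.4 CPM in Tc1 and 45.3 in Tc9, *Rela* at 120 and 183, and *Nfkb1* at 872 and 879. Also singled out afterwards, the log2 ratio of the kinase gene *Pim3* was 0.75 and that of *Stat5a* 0.71, both higher in Tc9 and beyond that range, and that of *Stat5b* was 0.67. With 1 library a group these are values of the libraries and not a test of the conditions.

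Of 10 cytokine receptor genes with a role in T cell survival, 8 were tested in 3 libraries, and 3 rose and 0 fell. They were *Il4ra*, *Il6st* and *Il2ra*, named after their values were seen. The fit held a single Tc1 library, and 20.4% of the 2622 genes tested in it passed in either direction. *Il4ra*, the receptor chain for IL-4, had 11551 counts in Tc1 replicate 2, against 33931 and 40320 among Tc9 cells (log2 fold change 1.66 ± 0.25, SE, adjusted p = 1.27e-09). *Il6st* had 728 counts in Tc1 replicate 2, against 1426 and 1301 among Tc9 cells (log2 fold change 0.88, adjusted p = 0.00511), and *Il2ra* 46793 in Tc1 and 74240 and 68904 in Tc9 (log2 fold change 0.59, adjusted p = 0.0362). All 3 calls were lost without the filter on low counts, where the fit called 0 genes in all, and that of *Il2ra* also with DESeq2 (adjusted p = 0.0751). *Il7r*, whose signal maintains BCL2, had 5233 counts in Tc1 replicate 2, against 5144 and 4105 among Tc9 cells and did not pass (log2 fold change -0.21, adjusted p = 0.63). It too was singled out after its values were seen.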

How the data were processed

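The authors sequenced pooled RNA of sorted cells and deposited, per gene and library, expected counts and FPKM values with a transcript length; the submitters' processing notes name the build mm10. Aligner, counting program and strandedness are not given in the sources used here. Exons of *Bcl2*, *Bak1* and *Bid* overlap a gene on the other strand, and exons of *Bax* and *Bcl2a1b* one on the same strand. The tables list no gene at 0, and genes missing inside the range of a table were set to 0. An incomplete row, 1 in all, was dropped. Depth was the sum of counts for Tc9 replicate 2, whose table is complete. For the others it came from the ratio of count to FPKM relative to that library, since the sum of a table cut short is not its depth. A count of 3, the floor, is 0.0940 to 0.0973 CPM; intervals cover counting error only where they come from counts.

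Expected counts were rounded and tested, two-sided, with the quasi-likelihood test of edgeR 4.0.16 (R 4.3.3; filterByExpr at a minimum count of 10, then TMM, Benjamini-Hochberg over all genes tested), without a replicate term. DESeq2 1.42.0, limma 3.58.1 on log2(FPKM + 1) and log2(FPKM + 0.1), other filters and scalings, a replicate block and leaving out each library were alternatives. The test was checked on simulated counts. Replicate numbers come from the sample labels. The members, gene lists and tests were chosen with earlier results of these data known. Named were all members, all covered genes of the further family list, up to 6 called genes of each other list by lowest adjusted p in 4 libraries, and fixed markers; exceptions are marked. A few list genes are not reported here. Promoter windows came from RefSeq (GRCm38.p6), transcripts from GENCODE M21, and coding sequences were the longest open reading frames; alignments used Biopython 1.88.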

Additional observations from a re-analysis of the deposited data

How the results depend on the processing

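The falls of *Bcl2a1b*, *Bcl2a1d* and *Bcl2l11* kept their direction and their side of the threshold under every alternative to the fit of 4 libraries, with log2 fold changes of -1.55 to -1.03 for *Bcl2a1b*, -1.42 to -1.10 for *Bcl2a1d* and -1.11 to -0.62 for *Bcl2l11* and a largest adjusted p of 0.0155. In the same alternatives the rises of *Bnip3* and *Bnip3l* did so too, with a largest adjusted p of 0.00942. In the fit of 3 libraries without a filter, all 5 calls were lost (adjusted p of 0.217, 0.155, 0.208, 0.178 and 0.146 for *Bcl2a1b*, *Bcl2a1d*, *Bcl2l11*, *Bnip3* and *Bnip3l*). The number of the 8 genes called higher was 0 to 1 and the number called lower 3 to 4 when each library was left out. Without Tc9 replicate 2, *Bcl2* was the one called higher and *Bax* the one added among the lower, and without Tc9 replicate 1 *Bak1* was called higher. Those fits took the single Tc9 library to vary like the Tc1 pair, so these calls do not measure the spread between Tc9 pools. Leaving out Tc9 replicate 1 or 2 turned the direction of 3 genes, with log2 fold changes of -0.034 to 0.060 for *Bcl2l1*, -0.27 to 0.054 for *Bax* and -0.066 to 0.28 for *Bbc3*. Over all genes, leaving out a library gave 99 to 424 higher and 74 to 430 lower, against 224 and 214, with the lone library of an arm assumed to vary like the other arm, and no filter gave 139 lower. Scaling by depth alone gave 249 higher and 183 lower. In the fit of 3 libraries, edgeR without a filter called 0 genes of all and DESeq2 called 217 higher and 121 lower, against 327 and 208. The cause was not tested. For the ratio between the replicate 2 libraries, 9 alternatives lay outside the counting interval, mostly those on FPKM.

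Same-numbered libraries deviated with a correlation of -0.06, so the replicate numbers were not taken to pair the samples. A replicate block gave 231 higher and 213 lower, 406 of the 438 calls being shared, and among the 8 genes 0 higher and 3 lower.

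With 2 pools a group, small changes of *Bcl2*, *Bax* and *Bak1* rest on single Tc9 libraries, and *Mcl1* and *Bbc3* have 1 Tc1 library. The split of reads among the A1 copies cannot be checked from gene tables.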
